A study of Mus musculus with 16 samples.

Results

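Collagens, laminins and integrins were taken from the deposited expression table by symbol, as every numbered collagen chain, laminin alpha, beta or gamma chain, integrin alpha subunit with a number or the letter v, and integrin beta subunit from 1 to 8. The symbol rule used no measured value, though the members were chosen with earlier results of these data known. It gave 75 of 30386 genes, of which 44 were collagens, 11 laminins, 12 integrin alpha subunits and 8 integrin beta subunits. Alpha subunits with other letters in their symbols, such as *Itgam* and *Itga2b*, fall outside it. The RNA came from bulk mouse NSPCs (neural stem/progenitor cells) of the subventricular zone (SVZ), the neurogenic region under the lateral ventricles, with a constitutive *Dbx2* transgene (*Dbx2*-NSPCs, 8 samples) or a control *GFP* transgene (*GFP*-NSPCs, 8 samples). *Dbx2* encodes a homeodomain transcription factor, and the comparison asks which genes differ when it is overexpressed in proliferating cultures. Both groups descended from C57BL/6J/Babr animals aged 3 months, carried the plasmid pTP6 with the respective insert, had been selected with puromycin, and grew as neurospheres in uncoated flasks with EGF, FGF2 and heparin, so no laminin coating was present. The study's methods describe 2 independently derived pairs of lines, and the labels do not say which sample came from which pair; they number the samples of each group from 1 to 8.

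Collagens are trimeric proteins of the extracellular matrix, and laminins are trimers of an alpha, a beta and a gamma chain that build basement membranes together with type IV collagen, nidogens and perlecan. Integrins are receptors made of an alpha and a beta subunit: the alpha3, alpha6 and alpha7 subunits pair with beta1 to bind laminins, alpha1, alpha2, alpha10 and alpha11 pair with beta1 to bind collagens, and alphav pairs with several beta subunits to bind proteins with the RGD sequence, among them latent TGF-beta. In the SVZ, neural stem cells contact laminin-rich basement membranes of blood vessels and the branched matrix structures called fractones, and alpha6beta1 is known as a receptor they use for it.

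The promoters of the 4 changed members that averaged 10 CPM or more in either group and have an entry in the RefSeq table used here are shown first, because the transgene encodes a DNA-binding protein and all 4 genes rose. Entries existed for 55 of the 75 members. Each sequence is the 250 bases before the annotated start (GRCm38.p6, all on the plus strand), and capitals mark the GC box GGGCGG or its reverse complement CCGCCC. The sequences cover chr3:114030290-114030539 for *Col11a1*, chr4:130047590-130047839 for *Col16a1*, chr2:27886175-27886424 for *Col5a1* and chr16:33829415-33829664 for *Itgb5*.
Col11a1: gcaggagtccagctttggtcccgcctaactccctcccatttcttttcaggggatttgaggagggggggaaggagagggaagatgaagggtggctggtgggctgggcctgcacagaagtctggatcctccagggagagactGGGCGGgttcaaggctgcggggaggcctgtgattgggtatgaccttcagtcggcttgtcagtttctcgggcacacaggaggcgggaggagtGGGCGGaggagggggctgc
Col16a1: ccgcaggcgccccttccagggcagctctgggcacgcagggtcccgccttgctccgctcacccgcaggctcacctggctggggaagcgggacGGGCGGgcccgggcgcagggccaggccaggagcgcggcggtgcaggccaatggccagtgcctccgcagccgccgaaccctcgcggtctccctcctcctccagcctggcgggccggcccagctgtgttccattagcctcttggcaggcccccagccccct
Col5a1: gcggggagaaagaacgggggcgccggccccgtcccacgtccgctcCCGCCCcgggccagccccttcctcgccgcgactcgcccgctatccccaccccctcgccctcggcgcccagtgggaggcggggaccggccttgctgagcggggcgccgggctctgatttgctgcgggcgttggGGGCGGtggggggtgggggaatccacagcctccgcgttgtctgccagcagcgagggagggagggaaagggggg
Itgb5: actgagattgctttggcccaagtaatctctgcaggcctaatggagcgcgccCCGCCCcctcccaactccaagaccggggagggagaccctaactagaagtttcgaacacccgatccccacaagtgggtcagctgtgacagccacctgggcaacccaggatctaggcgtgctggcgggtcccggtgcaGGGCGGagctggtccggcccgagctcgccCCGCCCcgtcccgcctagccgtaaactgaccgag
A GC box on either strand was in 5 of the 7 promoters of changed members with an entry, these 4 and that of *Itga3*. It was also in 20 of the 32 promoters of tested members and in 35.4% of the promoters of all 27025 genes in the table. The palindrome TAATTA, a core sequence of many homeodomain sites, was in 0 of the 7 and in 5.65% of all promoters. TATAAA, the letters of a TATA box, was in 1 of the 7, that of *Col13a1*, and in 14.3% of all. *Itga6*, *Itga7*, *Lama4* and *Lamc1* also changed, and no promoter of theirs is shown here. A match or its absence concerns only these letters in this window.

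Each library counted 3′ tags, with reads near the end of the transcript, and the values are CPM (reads of a gene relative to all reads of the sample, scaled to 1e+06), which are not divided by transcript length because a transcript yields about the same number of tags whatever its length. Libraries held 1804660 to 3294873 reads, and 3 reads, taken as the floor of detection, corresponded to 0.911 to 1.66 CPM, a limit that covers counting error only. *Dbx2* itself was at 30.7 to 171 CPM in *GFP*-NSPCs against 114 to 232 CPM in *Dbx2*-NSPCs (log2 fold change 1.26, limma adjusted p = 0.00978); within the samples numbered 1 to 4 its difference did not pass (0.54, adjusted p = 0.0891) and within those numbered 5 to 8 it did (1.99, adjusted p = 5.67e-08). The 2 number sets stood apart in both transgene groups, so the fold changes of members described by name below are also given within them, while the lists at the end are given over all samples with the number of genes also called in both sets. Of the 10 NSPC markers, 9 were tested and *Slc1a3*, *Fabp7* and *Egfr* fell, the summed markers lying at 6957 to 8538 CPM in *GFP*-NSPCs against 5752 to 7251 CPM in *Dbx2*-NSPCs. The 8 endothelial markers summed to 1.34 to 12.9 CPM and 6.51 to 20.5 CPM, with *Cdh5* and *Cldn5* at 0 in every sample and *Flt1* higher in *Dbx2*-NSPCs, whereas 10 mural and fibroblast markers summed to 8.11 to 21.1 CPM and 12.7 to 20.3 CPM, with none of the 3 tested called and *Pdgfrb*, *Lum*, *Rgs5*, *Abcc9* and *Tagln* under the floor throughout. The part of the NSPC markers, and of the endothelial, ependymal and oligodendrocyte markers with 1 gene each that was higher in *Dbx2*-NSPCs (*Flt1*, *Ccdc153* and *Mobp*), in the results below was not tested.

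Of the 75 members, 40 exceeded 1 CPM in 4 or more of the 16 samples and were tested. They were 20 collagens, 8 laminins, 9 integrin alpha and 3 integrin beta subunits, and 18 members averaged at least 10 CPM over all samples. There were 8 members at 0 in every sample: *Col10a1*, *Col14a1*, *Col17a1*, *Col4a3*, *Col6a6*, *Col8a1*, *Itgb6* and *Lamc3*. The other 27 untested members reached at most 3.21 CPM in any sample, except for *Col9a1*, a chain of the fibril-associated type IX collagen, which reached 9.0 CPM in a *GFP*-NSPC sample. Among them were the chains of the main interstitial collagens, with *Col1a1* at no more than 3.11 CPM, *Col1a2* at 0.36 CPM and *Col3a1* at 0.68 CPM, and the epithelial beta4 subunit *Itgb4* at 0.35 CPM. The cultures thus held transcripts of few collagens at more than trace level, a single abundant laminin alpha chain, and an integrin set led by *Itgb1* and *Itga6*.

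**Figure D1:**
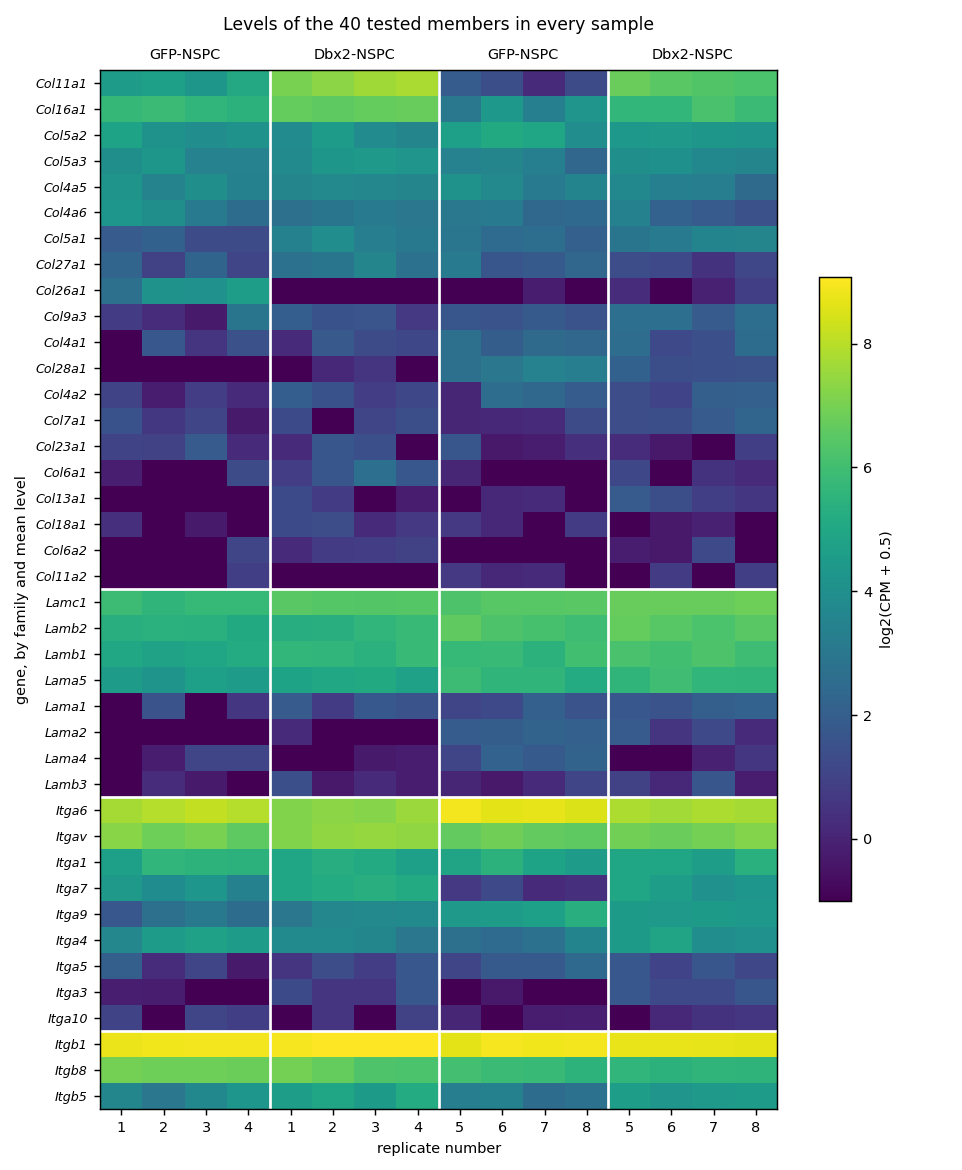
Heatmap of log2(CPM + 0.5) for the 40 tested members (rows, grouped by family and ordered by mean level) in the 16 samples (columns, by transgene and replicate number; white lines separate groups and families). *Itgb1* and *Itga6* are the brightest rows, *Col11a1* and *Itga7* are darkest in *GFP*-NSPC samples 5 to 8, and *Col26a1* is above the floor mainly in *GFP*-NSPC samples 1 to 4.

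Of the 40 tested members, 11 (27.5%) differed between *Dbx2*-NSPCs and *GFP*-NSPCs at a limma adjusted p under 0.05, against 15.8% of all 12533 genes tested. There were 9 that rose, *Col11a1*, *Col16a1*, *Col5a1*, *Col6a1*, *Col13a1*, *Lamc1*, *Itga3*, *Itga7* and *Itgb5*, and 2 fell, *Itga6* and *Lama4*; over all tested genes 8.03% rose and 7.78% fell. The median log2 fold change of the tested members was 0.31 and that of all tested genes -0.02. *Col6a1*, *Col13a1* and *Itga3* passed the filter with fewer than 4 *GFP*-NSPC samples over 1 CPM, and *Lama4* with fewer than 4 *Dbx2*-NSPC samples, so that they passed through the group where they were higher, and with the filter raised to 8 samples these 4 were not tested and 7 of 28 members (25.0%) were called, against 16% of 11711 genes. With no filter 12 of 67 members (17.9%) were called, against 9.93% of 17749 genes, *Itga2* being the member added. With the replicate number as a block in the model 15 of the 40 were called (37.5%), against 21.7% of all tested genes, which added *Col5a3*, *Itgav*, *Itgb8* and *Lamb1*. With the number set as a covariate 15 were called as well, against 24.2%, with *Col26a1* in place of *Col5a3*. Of the tested members, *Col11a1* and *Itga3* had no *Dbx2*-NSPC sample that overlapped a *GFP*-NSPC sample, and this was so in 3.41% of all tested genes; among the untested members it was so for *Itga2*, which lay lower in *Dbx2*-NSPCs. In these bulk samples, fewer cells that express a gene and less RNA per cell cannot be told apart.

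Over all samples, the collagen with the largest log2 fold change in the limma test was *Col11a1*, a chain of the minor fibrillar collagen XI, which sets the diameter of fibrils (ENSMUSG00000027966, chromosome 3 from 114030540 to 114220718). Its level in *GFP*-NSPCs ran from 0.68 over a median of 11.6 to 33.3 CPM, and in *Dbx2*-NSPCs from 74.6 over a median of 120.1 to 222 CPM. Every *Dbx2*-NSPC sample was above every *GFP*-NSPC sample, and the *GFP*-NSPC samples fell apart by number, since samples 1 to 4 had 22.6, 25.4, 19.9 and 33.3 CPM and samples 5 to 8 had 3.32, 2.15, 0.68 and 2.06 CPM. The means were 13.7 ± 13.0 and 134 ± 55.8 CPM (± SD over 8 samples a group), which gave a log2 fold change of 4.01 (SE 0.61, limma adjusted p = 1.4e-04). Within samples 1 to 4, *Dbx2*-NSPCs had 131, 159, 201 and 222 CPM, and the log2 fold change was 2.79 (SE 0.19, adjusted p = 2.8e-06). Within samples 5 to 8 they had 109, 90.4, 80.8 and 74.6 CPM, and the log2 fold change was 5.23 (SE 0.30, adjusted p = 4.9e-08). The rise was thus larger in the samples numbered 5 to 8, by 2.44 on the log2 scale (limma interaction term, adjusted p = 2.8e-05), where the *GFP*-NSPC level was lower.

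*Col16a1* encodes a collagen of the fibril-associated class (ENSMUSG00000040690, chromosome 4 from 130047840 to 130099283). It ran from 7.76 over a median of 31.6 to 57.5 CPM in *GFP*-NSPCs against 50.3 over 83.2 to 105 CPM in *Dbx2*-NSPCs. The groups overlapped, because 2 *GFP*-NSPC samples, numbered 1 and 2, were at 51.2 and 57.5 CPM, above the lowest *Dbx2*-NSPC samples, which carried numbers 5 and 6. *GFP*-NSPC sample 2 was also above *Dbx2*-NSPC sample 8, at 57.06 CPM. *Col16a1* rose by 1.56 on the log2 scale (SE 0.37, limma adjusted p = 0.0069), with 1.02 in samples 1 to 4 (adjusted p = 1.3e-04) and 2.09 in samples 5 to 8 (adjusted p = 4.7e-05). Its rise also differed between the number sets, by 1.07 (limma interaction adjusted p = 0.0188), though not past the threshold without *GFP*-NSPC replicate 7 (adjusted p = 0.0525) or *Dbx2*-NSPC replicate 7 (adjusted p = 0.0541).

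*Col5a1*, a chain of collagen V, which nucleates collagen fibrils, was lower in level (ENSMUSG00000026837, chromosome 2 from 27886425 to 28039514). Values lay at 1.95 to 7.20 CPM with a median of 3.79 CPM in *GFP*-NSPCs against 7.04 to 14.9 CPM with a median of 9.86 CPM in *Dbx2*-NSPCs. The groups touched at a single pair of samples, *GFP*-NSPC 5 at 7.20 CPM and *Dbx2*-NSPC 5 at 7.04 CPM. The log2 fold change was 1.27 (SE 0.24, limma adjusted p = 0.0013), 1.78 within samples 1 to 4 (adjusted p = 0.0024) and 0.76 within samples 5 to 8 (adjusted p = 0.0607, and 0.0406 by edgeR), and the difference between these was not called (adjusted p = 0.137). The other collagen V chains were not called by the same test. *Col5a2* lay at 14.7 to 34.7 CPM in *GFP*-NSPCs against 11.5 to 23.4 CPM in *Dbx2*-NSPCs (log2 fold change -0.30, limma adjusted p = 0.341), with -0.28 (adjusted p = 0.525) and -0.32 (adjusted p = 0.332) in the number sets. *Col5a3* lay at 4.52 to 19.8 CPM and 11.5 to 21.2 CPM (0.52, adjusted p = 0.126, or 0.0493 when the replicate number was a block), with 0.37 (adjusted p = 0.351) and 0.67 (adjusted p = 0.0979) in the sets. With the number set as a covariate, the adjusted p of *Col5a3* was 0.0514 by limma and 0.0481 by edgeR.

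*Col26a1* was found almost only in a single combination of transgene and number set (ENSMUSG00000004415, chromosome 5 from 136741759 to 136883209). *GFP*-NSPC samples 1 to 4 had 6.04, 17.6, 16.6 and 24.7 CPM, *Dbx2*-NSPC samples 1 to 4 were all at 0, and no sample numbered 5 to 8 of either group exceeded 1.35 CPM. *Col26a1* thus passed the filter only through *GFP*-NSPCs, where it was higher, and the tests given here for it depend on that selection. In samples 1 to 4 it was at least 16.5-fold lower in *Dbx2*-NSPCs, taking 3 reads per library as the bound (limma adjusted p = 1.6e-05), against a log2 fold change of 0.83 in samples 5 to 8 (adjusted p = 0.231) and an interaction at adjusted p = 9.9e-07. Over all samples the limma adjusted p was 0.111, while it was 0.0386 with the number set as a covariate, and edgeR and DESeq2 on the recovered reads gave 0.0085 and 0.0248. The adjusted p by edgeR with that covariate was 0.0020. The overall log2 fold change was -2.04 by limma and -4.71 by DESeq2, which is larger in size than the 3.31 that DESeq2 gave for *Col11a1*. Type XXVI collagen is a short collagen first described in testis and ovary.

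*Col27a1*, a fibrillar collagen chain of cartilage, was called by limma in both number sets in opposite directions, a pattern seen in 1.47% of all tested genes. By edgeR (1.7% of all tested genes) this held for *Col27a1* and for *Itga4*, described below, and by DESeq2 (1.52%) for *Itga4* and not *Col27a1*. In samples 1 to 4 it was at 4.43, 1.41, 4.24 and 1.67 CPM in *GFP*-NSPCs against 6.42, 6.98, 11.4 and 6.46 CPM in *Dbx2*-NSPCs (log2 fold change 1.37, limma adjusted p = 0.0289). In samples 5 to 8 the values were 8.31, 2.76, 3.07 and 4.52 CPM and 2.11, 1.86, 0.90 and 1.69 CPM (-1.19, adjusted p = 0.0355, and 0.0614 by DESeq2). The *Col27a1* groups did not overlap in either set, and over all samples the log2 fold change was 0.09 (adjusted p = 0.921). With no filter on low values, limma called *Col27a1* in neither set. *Col28a1*, which encodes a collagen with von Willebrand factor A domains, was at 0 in *GFP*-NSPC samples 1 to 4 and at 6.10, 7.36, 10.6 and 9.46 CPM in *GFP*-NSPC samples 5 to 8. *Dbx2*-NSPC samples 5 to 8 had 3.87, 2.17, 2.26 and 2.36 CPM, a fall of the log2 value by 1.49 (limma adjusted p = 0.0021).

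Low collagens that rose were *Col6a1*, a chain of the microfibrillar collagen VI, and *Col13a1*, a transmembrane collagen. *Col6a1* was at 0 to 2.0 CPM in *GFP*-NSPCs against 0 to 5.86 CPM in *Dbx2*-NSPCs (log2 fold change 1.45, limma adjusted p = 0.0437, and 0.0606 by edgeR), with 1.94 in samples 1 to 4 (adjusted p = 0.0355, and 0.065 by edgeR) and 0.96 in samples 5 to 8 (adjusted p = 0.198). *Col13a1* was at 0 to 0.68 CPM and 0 to 3.17 CPM (1.40, limma adjusted p = 0.0211), with 1.21 in samples 1 to 4 (adjusted p = 0.137) and 1.60 in samples 5 to 8 (adjusted p = 0.0193, and 0.0801 by DESeq2). *Col6a1* was under the floor of 3 reads in 7 of the 8 *GFP*-NSPC samples and *Col13a1* in all 8. Both genes passed the filter through *Dbx2*-NSPCs, where they were higher, and these tests depend on that selection. The basement membrane collagen IV chains did not pass the test. *Col4a5* lay at 8.20 to 18.1 CPM in *GFP*-NSPCs against 5.06 to 12.8 CPM in *Dbx2*-NSPCs, and *Col4a6* at 4.78 to 19.3 and 2.36 to 10.2 CPM. *Col4a1* and *Col4a2* were at no more than 6.10 CPM. Their exons overlap on opposite strands at the starts of both genes, whereas 3′ tags lie near the transcript ends. *Col7a1*, the anchoring fibril collagen, reached at most 4.39 CPM and was called within samples 5 to 8 (1.29, adjusted p = 0.0299), though edgeR gave 0.0532. The other 5 tested collagens, *Col9a3*, *Col11a2*, *Col18a1*, *Col23a1* and *Col6a2*, were called in no comparison under the main limma settings. With eBayes without trend, *Col9a3* was called within samples 5 to 8 and *Col18a1* for the difference between the number sets. *Col18a1* was called for that difference with no filter on low values as well.

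Summed over its 44 genes, the collagen level was 139 ± 38.6 CPM in *GFP*-NSPCs against 302 ± 80.5 CPM in *Dbx2*-NSPCs (± SD over 8 samples a group). Without *Col11a1* and *Col16a1* the sums were 93.7 ± 12.6 and 88.6 ± 10.3 CPM, so these 2 genes carried the difference between the sums. In samples 1 to 4 the collagen sums were 173 ± 12.6 and 371 ± 43.2 CPM, and in samples 5 to 8 they were 105 ± 14.9 and 232 ± 18.1 CPM (± SD over 4 samples). *Col11a1* made up 8.23% of the collagen tags in *GFP*-NSPCs and 42.8% in *Dbx2*-NSPCs, ranging from 0.689% to 18.5% and from 34.6% to 54.6% over samples.

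**Figure D2:**
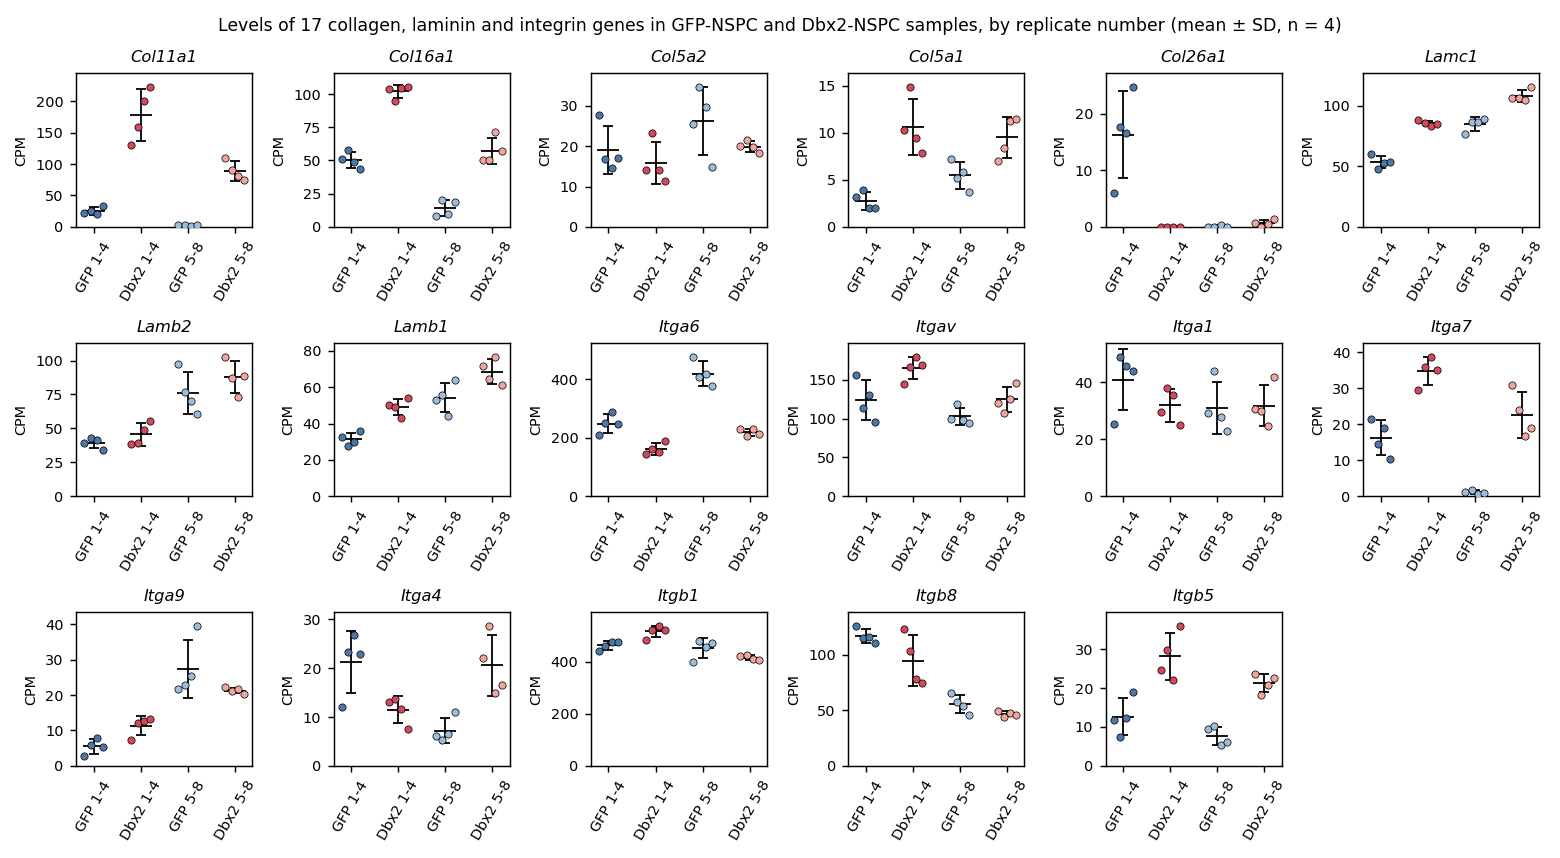
CPM (linear axes from 0) of the 17 members with the highest levels or clearest differences, with 1 panel per gene and 1 point per sample, in *GFP*-NSPCs (blue) and *Dbx2*-NSPCs (red), split into samples numbered 1 to 4 (dark) and 5 to 8 (light); bars are mean ± SD of 4 samples. *Col11a1*, *Col16a1*, *Itga7* and *Itgb5* are higher in *Dbx2*-NSPCs in both number sets and *Itga6* lower, while *Itga4* points in opposite directions in the sets and *Col26a1* is near 0 outside *GFP*-NSPC samples 1 to 4.

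Laminin tags came almost wholly from 4 chains, *Lama5*, *Lamb1*, *Lamb2* and *Lamc1*, which made up 97.3% ± 1.56 of the laminin sum in *GFP*-NSPCs, and 98.0% ± 0.71 of it in the other group (± SD over 8 samples a group). These chains can form laminin-511 and laminin-521, the trimers with the alpha5 chain. *Lamc1*, the gamma chain shared by most laminins (ENSMUSG00000026478, chromosome 1 from 153218922 to 153332786), was at 47.6 to 89.2 CPM with a median of 68.2 CPM in *GFP*-NSPCs against 83.7 to 115 CPM with a median of 96.9 CPM in *Dbx2*-NSPCs. Within each number set every *Dbx2*-NSPC sample was higher than every *GFP*-NSPC sample, and the overlap over all samples came from *GFP*-NSPC samples 6 to 8 at 86.7 to 89.2 CPM. *Lamc1* rose by 0.52 on the log2 scale (SE 0.14, limma adjusted p = 0.0144), with 0.68 in samples 1 to 4 (adjusted p = 0.0013) and 0.35 in samples 5 to 8 (adjusted p = 0.0088).

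*Lamb1*, a beta chain, had 27.5 to 63.7 CPM in *GFP*-NSPCs against 43.0 to 76.8 CPM in *Dbx2*-NSPCs, a log2 fold change of 0.49 with a limma adjusted p of 0.0607. It passed with the replicate number as a block (adjusted p = 0.0053) and within samples 1 to 4 (0.64, adjusted p = 0.0077), whereas within samples 5 to 8 it did not (0.34, adjusted p = 0.0624, and 0.0412 by edgeR). *Lamb2*, the other abundant beta chain, was at 34.0 to 97.5 CPM and 38.2 to 103 CPM (0.20, adjusted p = 0.622), with 0.20 (adjusted p = 0.431) and 0.21 (adjusted p = 0.311) in the number sets. *Lama5*, named here after its values were seen because it was the sole abundant alpha chain, was at 18.0 to 59.3 CPM and 26.9 to 62.1 CPM (0.29, adjusted p = 0.462), with 0.44 (adjusted p = 0.0887) and 0.13 (adjusted p = 0.583) in the sets. All 4 chains had higher means in samples 5 to 8 than in samples 1 to 4 in both transgene groups, as for *Lama5*, where the means of samples 1 to 4 were 22.2 CPM (*GFP*-NSPCs) and 30.2 CPM (*Dbx2*-NSPCs) and those of samples 5 to 8 were 47.4 and 51.5 CPM.

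The laminin alpha chain that changed was *Lama4*, the chain of vascular and peripheral nerve laminins, at low level. It had 0, 0.35, 1.63, 1.67, 1.66, 3.99, 3.07 and 4.11 CPM in *GFP*-NSPC samples 1 to 8, and no more than 1.01 CPM in any *Dbx2*-NSPC sample. It fell by 1.53 on the log2 scale (SE 0.44, limma adjusted p = 0.0237), and within samples 5 to 8 it fell by 2.20 (adjusted p = 0.0026), whereas in samples 1 to 4 the value was -0.87 (adjusted p = 0.313). *Lama4* passed the filter through *GFP*-NSPCs, where it was higher, and these tests depend on that selection. *Lama2*, the muscle and glial alpha2 chain, was at 0 in *GFP*-NSPC samples 1 to 4 and at 3.32 to 4.10 CPM in samples 5 to 8 of that group, against 0.68 to 3.17 CPM in *Dbx2*-NSPC samples 5 to 8 (-1.08, adjusted p = 0.0561). *Lama1* and *Lamb3* reached at most 4.05 and 2.71 CPM and were not called.

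On the receptor side, the laminin-binding alpha subunits *Itga6* and *Itga7* changed in both number sets, *Itga6* downwards and *Itga7* upwards, and 7.95% of all tested genes were called in both sets. *Itga3*, the third such subunit, entered the test only through *Dbx2*-NSPCs, where it was higher. *Itga6* (ENSMUSG00000027111, chromosome 2 from 71745616 to 71858416) was the most abundant alpha subunit by tags. It ran from 210.3 over a median of 331 to 476 CPM in *GFP*-NSPCs against 144 over 198 to 229 CPM in *Dbx2*-NSPCs. Overlap was confined to *GFP*-NSPC sample 1 at 210.3 CPM, since the other *GFP*-NSPC samples had at least 246 CPM. *Itga6* fell by 0.78 on the log2 scale (SE 0.16, limma adjusted p = 0.0025), by 0.62 in samples 1 to 4 (adjusted p = 0.0044) and by 0.93 in samples 5 to 8 (adjusted p = 2.3e-06), and was lower in *Dbx2*-NSPCs for all 8 numbers.

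*Itga7*, the laminin receptor subunit best known from skeletal muscle (ENSMUSG00000025348, chromosome 10 from 128933818 to 128958282), moved the other way. *GFP*-NSPC samples 1 to 4 had 21.4, 14.5, 18.9 and 10.3 CPM and samples 5 to 8 had 1.11, 1.84, 0.68 and 0.82 CPM. *Dbx2*-NSPC samples 1 to 4 had 29.5, 35.8, 38.8 and 35.2 CPM and samples 5 to 8 had 31.0, 23.9, 16.7 and 18.9 CPM. The groups did not overlap within either set, and over all samples the overlap was between *GFP*-NSPC samples 1 and 3 and *Dbx2*-NSPC samples 7 and 8. The log2 fold change was 2.49 (SE 0.58, limma adjusted p = 0.0064), with 1.12 (adjusted p = 0.0047) and 3.85 (adjusted p = 7.6e-07) in the number sets and an interaction of 2.74 (adjusted p = 1.1e-05). *Mettl7b*, whose exons overlap it on the opposite strand, averaged 0.20 CPM.

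*Itga3* was near the floor, with 3 reads over all *GFP*-NSPC samples and 46 over all *Dbx2*-NSPC samples. Relative to the total reads this was a ratio of 14.2 (exact conditional 95% interval 4.57 to 71.5, counting error only), with a range of 0 to 0.40 CPM in *GFP*-NSPCs against 0.91 to 2.87 CPM in *Dbx2*-NSPCs (limma adjusted p = 1.2e-04). Within samples 1 to 4 limma gave an adjusted p of 0.0241 and DESeq2 0.0609. As a share of the tags of these 3 subunits, *Itga6* averaged 96.7% in *GFP*-NSPCs and 85.6% in *Dbx2*-NSPCs, and *Itga7* 3.24% and 13.5%. Their summed level was 342 ± 89.8 CPM and 221 ± 30.02 CPM (± SD over 8 samples a group).

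**Figure D3:**
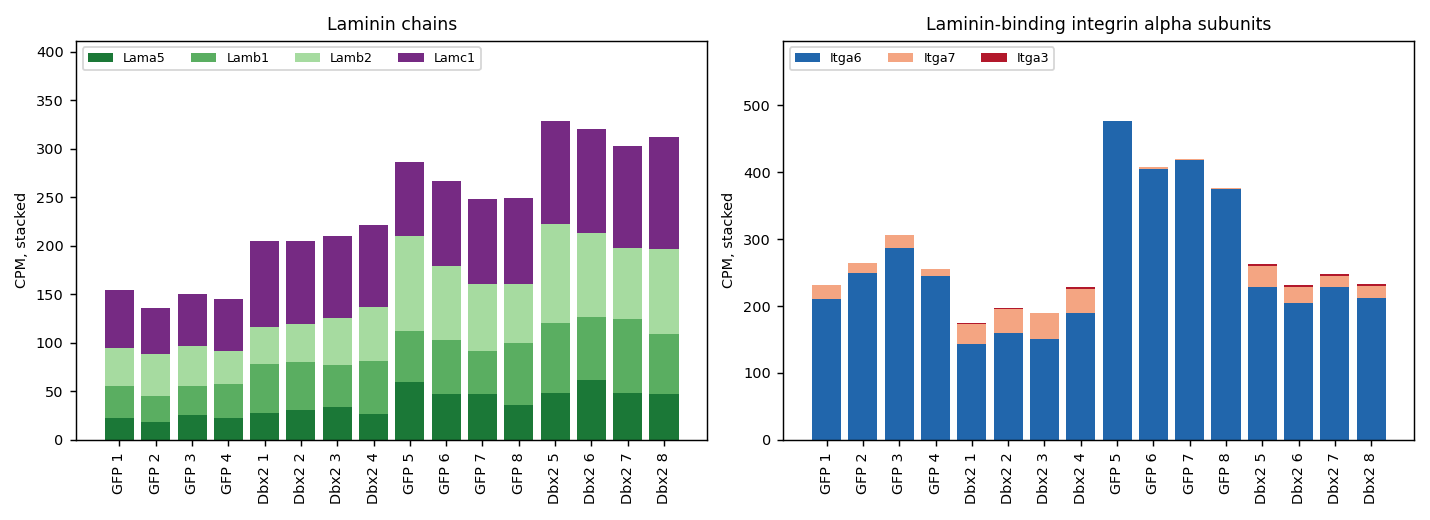
Stacked CPM (linear axis from 0) in each of the 16 samples, ordered by transgene within each number set, for the 4 abundant laminin chains (left) and the 3 laminin-binding integrin alpha subunits (right). The laminin stacks are taller in *Dbx2*-NSPCs within each number set, and the integrin stacks are lower in *Dbx2*-NSPCs with a larger *Itga7* layer, reaching 20.4% of the stack.

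The common partner of these subunits, *Itgb1* (ENSMUSG00000025809, chromosome 8 from 128685654 to 128733200), was the member with the highest level. It lay at 399 to 482 CPM in *GFP*-NSPCs against 406 to 537 CPM in *Dbx2*-NSPCs (log2 fold change 0.02, SE 0.08, limma adjusted p = 0.896). The groups overlapped over all samples, with *Dbx2*-NSPC samples 1 to 4 above all *GFP*-NSPC samples and *Dbx2*-NSPC samples 5 to 8 within the *GFP*-NSPC range. Within samples 1 to 4 every *Dbx2*-NSPC sample, at 485 CPM or more, was above every *GFP*-NSPC sample, at 477 CPM or less (0.16, adjusted p = 0.23), and in samples 5 to 8 the log2 fold change was -0.12 (adjusted p = 0.284). The difference between these was called by DESeq2 and not by limma. *Itgb5*, a partner of alphav that binds vitronectin (ENSMUSG00000022817, chromosome 16 from 33829665 to 33949338), had 5.46 to 19.0 CPM with a median of 9.77 CPM in *GFP*-NSPCs against 18.3 to 35.9 CPM with a median of 23.1 CPM in *Dbx2*-NSPCs. A single pair overlapped, *GFP*-NSPC 4 at 19.0 CPM and *Dbx2*-NSPC 6 at 18.3 CPM. *Itgb5* rose by 1.30 on the log2 scale (SE 0.21, limma adjusted p = 3.0e-04), by 1.17 in samples 1 to 4 (adjusted p = 0.0102) and by 1.43 in samples 5 to 8 (adjusted p = 4.0e-04). With no filter on low values, its call in samples 1 to 4 was lost.

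*Itgav*, the alphav subunit, was at 94.6 to 156 CPM in *GFP*-NSPCs against 107 to 179 CPM in *Dbx2*-NSPCs (log2 fold change 0.35, limma adjusted p = 0.0577, and 0.030 with the replicate block), with 0.43 in samples 1 to 4 (adjusted p = 0.0605, and 0.0456 by edgeR) and 0.27 in samples 5 to 8 (adjusted p = 0.0846, and 0.0492 by edgeR). *Itgb8*, a partner of alphav that with it binds latent TGF-beta, was at 45.6 to 126 CPM and 44.1 to 123 CPM (-0.28, adjusted p = 0.506, and 0.0362 with the block), and its level followed the number sets, with means of 117 CPM (*GFP*-NSPCs) and 94.8 CPM (*Dbx2*-NSPCs) in samples 1 to 4 and of 55.5 and 46.8 CPM in samples 5 to 8. Of these 3 subunits, only *Itgb5* passed the main limma test. With the number set as a covariate, limma called *Itgav* and *Itgb8* too, and edgeR called *Itgav* but not *Itgb8*. *Itga5*, the fibronectin receptor subunit, reached at most 4.93 CPM, and *Itgb3* was not tested, with at most 1.08 CPM.

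The 2 collagen-binding subunits that were tested, *Itga1* and *Itga10*, were not called. *Itga1* was at 23.0 to 49.0 CPM in *GFP*-NSPCs against 24.8 to 41.9 CPM in *Dbx2*-NSPCs (log2 fold change -0.14, SE 0.17, limma adjusted p = 0.639; -0.33 and 0.05 in the number sets, adjusted p = 0.343 and 0.896), and *Itga10* reached at most 1.63 CPM. *Itga11* was below the filter, at no more than 1.41 CPM. *Itga2* was below it too, with 0.81, 1.76, 0.65, 1.33, 0.55, 0.61, 0.34 and 0.82 CPM in *GFP*-NSPC samples 1 to 8, and 0.30 CPM in *Dbx2*-NSPC sample 2 and 0 in the other 7. All 8 *GFP*-NSPC samples were above all *Dbx2*-NSPC samples, on 19 reads against 1 read in all. In the limma fit without a filter on low values *Itga2* was called lower over all samples (adjusted p = 2.4e-04), in samples 1 to 4 (adjusted p = 0.0226) and in samples 5 to 8 (adjusted p = 0.0027).

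*Itga4* and *Itga9*, related subunits that bind VCAM1, fibronectin and tenascin-C among others, had fold changes that differed between the number sets and were not called over all samples. *Itga4* (ENSMUSG00000027009, chromosome 2 from 79255426 to 79333123) had 12.1, 23.3, 26.7 and 23.0 CPM in *GFP*-NSPC and 13.2, 13.7, 11.7 and 7.53 CPM in *Dbx2*-NSPC samples 1 to 4 (log2 fold change -0.83, limma adjusted p = 0.0612, and 0.0453 with the 8-sample filter, 0.0311 by edgeR, 0.0217 by DESeq2 and 0.0087 without *GFP*-NSPC replicate 1). Samples 5 to 8 had 6.10, 5.21, 6.49 and 11.1 CPM and 22.2, 28.6, 14.9 and 16.5 CPM (1.46, adjusted p = 0.0013, and 1.4e-05 by edgeR and 5.4e-06 by DESeq2), without overlap. By edgeR and DESeq2 *Itga4* was thus called in opposite directions in the sets. The interaction was 2.29 (SE 0.39, limma adjusted p = 2.1e-04), and over all samples the value was 0.31 (adjusted p = 0.59). *Itga9* (ENSMUSG00000039115, chromosome 9 from 118606690 to 118901003) had 2.82, 6.0, 7.82 and 5.33 CPM against 7.38, 12.1, 12.7 and 13.3 CPM in samples 1 to 4 (1.03, limma adjusted p = 0.0478), and 21.6, 23.0, 25.3 and 39.5 CPM against 22.2, 21.1, 21.7 and 20.3 CPM in samples 5 to 8 (-0.31, adjusted p = 0.258). The call in samples 1 to 4 was lost without any of *GFP*-NSPC replicates 1, 2 and 4 or *Dbx2*-NSPC replicates 2, 3 and 4 (adjusted p = 0.0791 to 0.124). Its interaction was -1.34 (limma adjusted p = 0.0182), and without *GFP*-NSPC replicate 8, at 39.5 CPM, it was -1.15 (adjusted p = 0.0526).

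Within samples 1 to 4, 13 of the 40 members were called, 11 up and 2 down, against 15.6% of all tested genes (8.19% up and 7.37% down). Within samples 5 to 8 there were again 13, of which 9 were up and 4 down, against 23.2% (11.5% up and 11.7% down). Both sets called 8 of them, against 7.95% of all tested genes, and 7 of these had the same direction in both: *Col11a1*, *Col16a1*, *Lamc1*, *Itga3*, *Itga7* and *Itgb5* upwards and *Itga6* downwards. Of these, *Itga3* entered the test only through *Dbx2*-NSPCs, and *Itgb5* was not called in samples 1 to 4 with no filter on low values. The difference between the sets was called for 8 of the 40 members, 5 higher and 3 lower in samples 5 to 8, against 9.44% of all tested genes (4.4% and 5.04%), and these were 5 collagens, 3 integrin alpha subunits and no laminin or beta subunit. DESeq2 on the recovered reads also called this difference for the beta subunit *Itgb1*. Tested members without overlap between the groups were 13 in samples 1 to 4 and 16 in samples 5 to 8, against 19.6% and 24.8% of all tested genes.

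**Figure D4:**
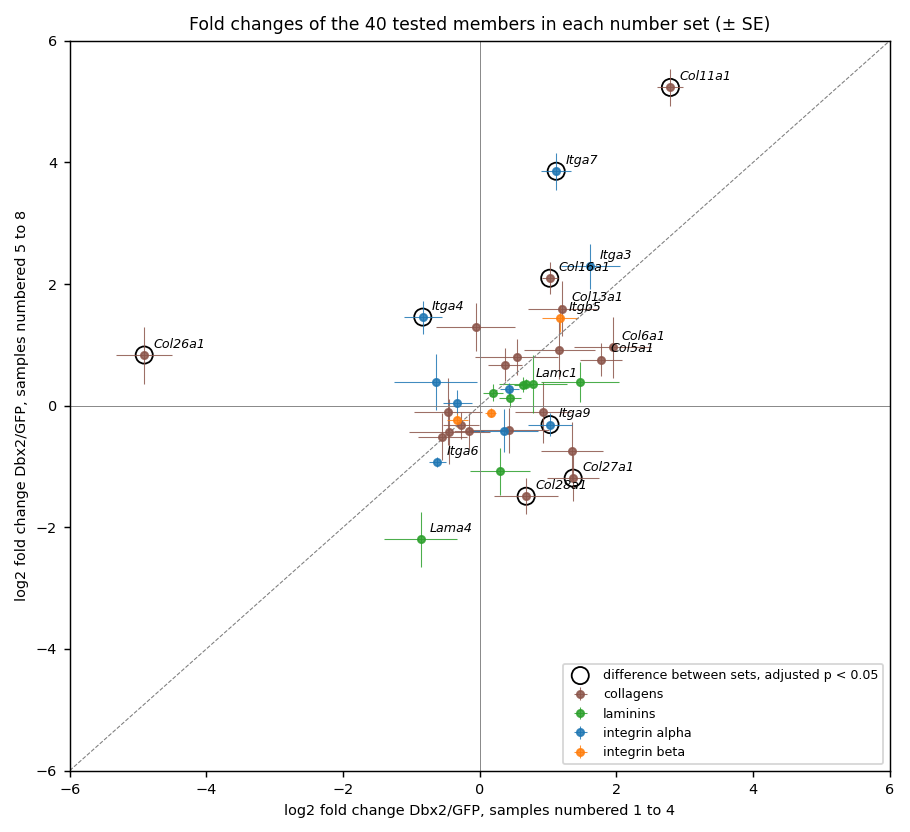
Log2 fold change of *Dbx2*-NSPCs over *GFP*-NSPCs, ± SE, of each of the 40 tested members in samples numbered 1 to 4 (horizontal) and 5 to 8 (vertical), coloured by family; rings mark the 8 members with a called difference between the sets and the dashed line marks equal values. *Col11a1* and *Itga7* lie above the line at the top right, *Itga4* and *Col26a1* at the upper left, and *Col27a1* and *Col28a1* at the lower right.

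Genes that process or modify collagen, the partners of these proteins in the matrix, and the intracellular side of integrins were followed as lists. The lists were drawn up with earlier results of these data known. Their shares beside that of all tested genes are therefore a description, and no test of a list as a whole was run. Of the 25 tested collagen processing genes, 4 were called (16%), 3 up and 1 down, a share near the 15.8% of all tested genes, with a median log2 fold change of 0.10. Within both number sets 3 of the 4 were called as well, *Pcolce*, *Adamts2* and *Serpinh1*. Here and in the lists below, such counts are of genes called over all samples and, in the same direction, in both sets. Of all tested genes, 7.95% were called in both sets, whatever the direction and the call over all samples. *Pcolce*, which enhances the cleavage of procollagen, rose from 3.14 ± 2.61 to 23.4 ± 8.55 CPM (± SD over 8 samples a group; log2 fold change 3.17), and the procollagen protease *Adamts2* rose, with at most 0.35 CPM in *GFP*-NSPCs and a range of 0.45 to 8.99 CPM in *Dbx2*-NSPCs. *Adamts2* thus entered the test only through *Dbx2*-NSPCs, where it was higher. *Serpinh1*, the collagen chaperone HSP47, fell, with a range of 18.8 to 87.0 CPM in *GFP*-NSPCs and of 0 to 29.9 CPM in *Dbx2*-NSPCs, and was at 0 in *Dbx2*-NSPC samples 5 to 8. *Col11a1* and *Serpinh1* thus changed in opposite directions, with log2 fold changes of 4.01 and -3.31.

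Of the 20 tested basement membrane partners, 6 were called (30%, against 15.8% of all tested genes), 5 up and 1 down, and 3 of them in both number sets, *Sparc*, *Sdc4* and *Sdc2*. *Sparc*, a collagen-binding matrix protein, rose from 351 ± 77.2 to 1026 ± 366 CPM, and *Sdc4*, a heparan sulfate co-receptor of integrins, from 56.0 ± 15.4 to 130 ± 37.6 CPM (± SD over 8 samples a group). *Npnt*, nephronectin, rose by 0.58, and *Ntn4*, a netrin that binds laminin, fell by 1.70 on the log2 scale. Of the 17 tested other integrin ligands, 4 were called (23.5%, against 15.8%), 2 of them in both sets, *Ltbp1* and *Edil3*. Those called included *Ltbp1* (1.097) and *Edil3* (2.57), ligands or carriers of RGD sequences, which rose, and *Tnc*, tenascin-C, which fell by 0.69. In samples 1 to 4 and 5 to 8 the log2 fold changes were -0.23 and -3.17 for *Ntn4*, and 3.54 and 0.01 for *Sparcl1*, a relative of *Sparc*.

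Integrin adaptors and linkers were called in 10 of 29 cases (34.5%, against 15.8% of all tested genes), 5 up and 5 down, with a median log2 fold change of 0.01. Of the 10, 2 were called in both number sets, *Ilk* and *Cd47*. Up were *Actn1* (0.84), *Bcar1* (1.004), *Tns1* (0.72), *Kank1* (1.49) and *Cd151* (0.85), a tetraspanin that associates with laminin-binding integrins. Down were the kinases *Ptk2* (-0.64) and *Ilk* (-0.39), *Lims1* (-0.84), *Zyx* (-0.51) and *Cd47* (-0.54). Among 5 tested other collagen receptors, *Ddr1*, a receptor tyrosine kinase, rose by 0.40 (adjusted p = 0.0849 and 0.0073 in the number sets), from 369 ± 50.1 to 491 ± 78.1 CPM (± SD over 8 samples a group). Of 19 tested matrix proteases and inhibitors, 10 were called (52.6%, against 15.8%), 6 up and 4 down. Of the 10, 7 were called in both number sets in the same direction, and 7.95% of all tested genes were called in both sets in either direction. *Timp3*, a matrix-bound metalloproteinase inhibitor, fell from 106 ± 57.6 to 11.3 ± 6.88 CPM. *Mmp14*, a membrane-bound collagenase, fell overall by 2.62 on the log2 scale with 0.03 in samples 1 to 4 and -5.27 in samples 5 to 8, while *Timp4* (0.75) and *Timp2* (0.61) rose. The median of each of these lists lay between -0.19 and 0.16, against -0.02 for all tested genes.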

How the data were processed

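RNA from 8 *GFP*-NSPC and 8 *Dbx2*-NSPC samples had been sequenced from 3′ tag libraries of 100 ng total RNA. The authors checked reads with FastQC 0.11.8, trimmed them with bbduk, mapped them to GRCm38 with STAR 2.5.0a and deposited CPM values for 30386 genes. The counting tool and its strand setting are not given in the sources used here. The deposited CPM hold no scaling beyond the total, and every value above 0 was a whole number of reads within 0.05 reads, so the reads could be recovered for edgeR and DESeq2; 0 columns were left out. The table holds no comparison columns.

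Titles give the transgene of each sample. The 12533 genes exceeding 1 CPM in 4 or more samples entered a 2-sided limma test (version 3.58.1, R 4.3.3, eBayes with trend) of log2(CPM + 0.5), p-values were adjusted by the method of Benjamini and Hochberg, and 0.05 was the threshold; a fold change on this scale understates that of low genes. The same test was run within samples numbered 1 to 4 and 5 to 8, and an interaction term tested the difference. The study's cell line covariate was not fitted, because the labels do not give the line of a sample. The p-values measure the spread between samples that the labels call biological replicates. The paper describes 4 independent experiments for each of the 2 pairs of lines. The p-values therefore do not measure how much independently derived lines differ.

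Same-numbered samples deviated together in each of the 8 pairs (r of 0.152 to 0.303, deviations from group means over all tested genes), with a mean of 0.226. Differently numbered samples of 1 set had a mean r of 0.199, around the means of the number sets r of same-numbered samples averaged 0.040 (-0.007 to 0.119), and 4 of the 8 *GFP*-NSPC samples had their closest *Dbx2*-NSPC partner in the same number. Numbers were taken to pair samples where every same-numbered r exceeded 0.1, which these did, although most of that correlation was shared by the whole number set. The replicate block is given where it changes a call, and the number set as a covariate where its call differs from that of the block.

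Members and lists were chosen with earlier results of these data known. Named members were those called overall with a group mean of at least 10 CPM, those with a called difference between number sets and at least 10 CPM in a cell of the design, and the 3 highest of each family; others are given where called or as counts. *Lama5*, *Col27a1*, *Col28a1* and the low members were described after their values were seen. Alternatives were pseudocounts of 0.1 and 2, 2 filters, TMM and median-of-ratios scaling, eBayes without trend, the block, the number set as covariate, edgeR 4.0.16, DESeq2 1.42.0, and leaving out each sample. The tests were tried on simulated data with planted changes. Gene positions came from GENCODE M21 and promoter sequences from RefSeq (GRCm38.p6); tables were handled with Python 3.11.15, pandas 2.3.3 and numpy 2.4.6, and plots drawn with matplotlib 3.10.9.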

Additional observations from a re-analysis of the deposited data

Results flagged for a closer look

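Among the 34 groups of 8 samples examined for the named members, a single library stood apart: *Itgb1* was at 398.97 CPM in *GFP*-NSPC replicate 5, whereas the other *GFP*-NSPC samples lay at 440.74 to 481.86 CPM (gap to the nearest over the range, 0.527, just past the 95% critical value). Chance alone marks about 1 in 20 such groups.

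For 8 members the fold change differed between samples numbered 5 to 8 and samples numbered 1 to 4 by limma's interaction term. The difference (5 to 8 minus 1 to 4, log2 scale) was 2.44 for *Col11a1*, 1.07 for *Col16a1*, 5.74 for *Col26a1*, -2.56 for *Col27a1*, -2.17 for *Col28a1*, 2.29 for *Itga4*, 2.74 for *Itga7* and -1.34 for *Itga9*, with adjusted p from 9.9e-07 to 0.0188. In the samples numbered 5 to 8 the *Dbx2* level itself also differed more between the groups (interaction 1.45, adjusted p = 1.0e-04); its part in these differences was not tested. The labels do not give the line pair of a sample, so whether the number sets are the line pairs was not tested.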

How the results depend on the processing

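The number of members called overall was 11 of 40 (15.8% of all tested genes), and 7 of 28 with the filter raised to more than 1 CPM in 8 samples (16%), where fewer genes were tested; under the other settings it ran from 10 (pseudocount 2, 15.9%) up to 15, reached with the replicate block (21.7%) and with the number set as a covariate in limma (24.2%) and edgeR (23.4%). Leaving out each sample in turn gave 10 to 12 over all samples, 10 to 15 in samples 1 to 4, 11 to 14 in samples 5 to 8 and 7 to 9 for the difference between sets. The block added *Col5a3*, *Itgav*, *Itgb8* and *Lamb1* to the overall calls, and changed no call within the number sets or for their difference. The covariate in limma added *Col26a1*, *Itgav*, *Itgb8* and *Lamb1*, and in edgeR *Col26a1*, *Col5a3*, *Itgav* and *Lamb1*.

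Over 17 members, 35 results gave 844 recomputed values, of which 799 kept their direction and side of the threshold, 13 lost the call, 28 gained it and 4 changed sign. The sign changes were all of *Itgb1*, whose overall log2 fold change was -0.0083 without *GFP*-NSPC replicate 5 and -0.0051, -0.0104 and -0.0050 without *Dbx2*-NSPC replicates 2, 3 and 4; leaving out samples gave at most 0.0474. *Itga9* in samples 1 to 4 lost its call most often, with adjusted p up to 0.124. *Col16a1* lost the call of its difference between sets without *GFP*-NSPC replicate 7 (adjusted p = 0.0525) or *Dbx2*-NSPC replicate 7 (0.0541) and with eBayes without trend (0.0725). *Itgav* passed with TMM (0.0494), DESeq2 (0.0342), and without *GFP*-NSPC replicate 1 (0.0153) or *Dbx2*-NSPC replicate 6 (0.0279). *Lamb1* passed with TMM (0.0443), DESeq2 (0.0413), and without *GFP*-NSPC replicate 5, 6 or 8 or *Dbx2*-NSPC replicate 3 (0.0238 to 0.0477). *Itga4* in samples 1 to 4 passed with the 8-sample filter (0.0453), edgeR (0.0311), DESeq2 (0.0217) and without *GFP*-NSPC replicate 1 (-1.08, adjusted p = 0.0087). Over all samples *Col26a1* passed with edgeR (0.0085), DESeq2 (0.0248) and the number set as a covariate (0.0386 in limma and 0.0020 in edgeR). *Col26a1* has no value with the 8-sample filter. The causes were not tested. Levels under 0.911 to 1.66 CPM, depending on the library, rest on fewer than 3 reads.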
